A study of Rattus norvegicus with 2 samples.

Results

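The genes described here are Cyr61 and Ctgf, which RefSeq names Ccn1 and Ccn2, together with Thbs1, Ankrd1, the plasminogen activators Plat and Plau, the urokinase receptor Plaur, tissue factor (F3), and thrombomodulin (Thbd). Every probe other than a control whose gene name in the scanner files is one of these was taken, which gave 12 probes for 9 of the 36174 gene names on the array. Total RNA of cervical lymph nodes of male Sprague-Dawley rats, 10 to 12 weeks old, was compared between a control group without stress (C) and a restraint stress group (RS), with 1 array per group. The rats of the RS group were fastened on their backs to a board; the sample label gives no restraint time, and the array comparison of the study is between its C and RS30 groups. Rats were put under halothane and killed with pentobarbital after the stress, and whether the RNA on each array was that of 1 rat or a pool is not given in the sources used here. No difference has a replicate, because each group has 1 array, and no test could be made. The genes were chosen with their values on these arrays known, so their differences are given as a description.

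CYR61 and CTGF are secreted matricellular proteins of the CCN family, which bind integrins and heparan sulfate, and their genes are used as readouts of YAP and TAZ, the coactivators of the TEAD transcription factors that respond to cell shape and tension. Ankrd1, a nuclear and sarcomeric ankyrin repeat protein, is another common readout of YAP. Thrombospondin-1, the product of Thbs1, is a matricellular protein of platelets, endothelium and stroma that can activate latent TGF-beta. Tissue factor starts clotting by binding factor VII, whereas thrombomodulin on endothelium turns thrombin toward the activation of protein C. Tissue-type and urokinase-type plasminogen activators, encoded by Plat and Plau, cut plasminogen to plasmin, which dissolves fibrin; PLAUR holds urokinase at the cell surface.

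Promoter sequences are shown because Cyr61, Ctgf and Thbs1 are known targets of TEAD factors. RefSeq promoters in the GRCr8 build were matched for 5 of the 9 genes, and the 250 bases before the start of the gene were searched on both strands for GGAATG (the TEAD core, CATTCC on the other strand) and TGANTCA (AP-1). GGAATG was found in 3 of the 5 promoters, compared with 12.1% of the 33469 promoters of the same length. These 3 are the known TEAD targets for which the promoters are shown, so the comparison is a description only. The Ctgf window held 3 matches, the farthest ending 161 bases and the nearest 87 bases before the start, and 27 of all promoters (0.0807%) held 3 or more. Cyr61 and Thbs1 held 1 match each, which started 113 and 47 bases before the gene. TGANTCA was found once, in the Plaur window, and in 6.34% of all promoters. The Plau window held neither motif. A full cyclic AMP response element (TGACGTCA) and the CArG box of serum response factor were found in 0 of the 5 windows. Of all 33469 promoters, only 531 held the first and 501 the second. Their absence from 5 windows therefore does not set these genes apart from other genes. A match describes the sequence and does not show that a factor binds there. The windows with a match are printed with these matches in capitals (CATTCC in Cyr61, where the match lies on the other strand), at chr2:237225690-237225939 on the reverse strand for Cyr61, chr1:22624615-22624864 on the reverse strand for Ctgf, chr3:125510000-125510249 on the forward strand for Thbs1, and chr1:89181113-89181362 on the forward strand for Plaur.
Cyr61 promoter: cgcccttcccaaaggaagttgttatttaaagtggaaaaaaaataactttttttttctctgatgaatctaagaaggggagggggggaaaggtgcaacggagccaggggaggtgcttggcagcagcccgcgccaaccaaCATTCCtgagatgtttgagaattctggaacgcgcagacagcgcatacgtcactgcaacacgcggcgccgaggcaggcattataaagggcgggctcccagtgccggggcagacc
Ctgf promoter: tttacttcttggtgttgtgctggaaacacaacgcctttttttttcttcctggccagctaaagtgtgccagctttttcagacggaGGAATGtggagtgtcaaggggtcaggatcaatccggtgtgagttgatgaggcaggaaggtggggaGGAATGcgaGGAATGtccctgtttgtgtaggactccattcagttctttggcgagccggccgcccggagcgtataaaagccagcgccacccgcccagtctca
Thbs1 promoter: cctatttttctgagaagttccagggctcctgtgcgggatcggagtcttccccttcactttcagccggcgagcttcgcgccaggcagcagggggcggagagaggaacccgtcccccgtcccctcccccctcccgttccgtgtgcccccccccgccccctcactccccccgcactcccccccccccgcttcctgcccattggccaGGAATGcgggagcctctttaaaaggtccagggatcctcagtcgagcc
Plaur promoter: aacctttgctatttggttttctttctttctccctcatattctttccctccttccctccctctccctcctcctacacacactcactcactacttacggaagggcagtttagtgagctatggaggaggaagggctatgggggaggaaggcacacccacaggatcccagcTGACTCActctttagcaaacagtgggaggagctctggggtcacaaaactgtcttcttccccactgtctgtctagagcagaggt

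Plau, Plaur and Thbd carry a pair of probes each, and coding probes are shown because the values of a pair differed in how far they stood above background. The probes are 60 bases long, and their sequences are those of the scanner files. For Plau, probe 1 starts at base 1286 of its target transcript. Plau probe 2 starts at base 1083 of a different transcript record, which had no RefSeq match, so the 2 positions cannot be compared. For Plaur, probe 1 starts at base 445 and probe 2 at base 197. Probe 2 of Thbd starts at base 1827 and ends on a stop codon, printed in capitals, and probe 1 starts farther down the transcript, at base 3579. The Thbs1 probe starts at base 2605.
Plau probe 1: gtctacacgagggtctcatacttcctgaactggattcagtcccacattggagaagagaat
Plau probe 2: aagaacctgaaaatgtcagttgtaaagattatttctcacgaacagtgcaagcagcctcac
Plaur probe 1: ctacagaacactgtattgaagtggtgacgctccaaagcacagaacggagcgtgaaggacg
Plaur probe 2: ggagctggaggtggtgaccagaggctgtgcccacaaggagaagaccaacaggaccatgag
Thbd probe 2: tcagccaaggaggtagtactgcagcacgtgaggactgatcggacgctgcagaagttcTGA
Thbs1 probe: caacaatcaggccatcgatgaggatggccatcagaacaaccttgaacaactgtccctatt

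The arrays were read in Cy3, and the intensity of a spot measures the labelled cRNA bound to its probe. Levels are given as intensity, and differences as log2 values after the 75th percentile of each array, 189 on the C array and 176 on the RS array, had been subtracted. The scanner software marked 54.7% of the probes on the C array and 54.9% on the RS array as well above background; among the 308 negative controls it marked 2 and 3. A gene was screened when its representing probe, the one with the highest mean signal, passed this mark on 1 or both arrays, which held for 21096 genes. Of these, 730 (3.46%) were higher by 2-fold or more on the RS array and 903 (4.28%) were lower. Of the 9 genes described here, 8 were screened, 7 were higher by 2-fold or more and 0 were lower, which is set against the background of 3.46% only as a description because the genes were chosen on this contrast. The median log2 difference was 2.14 over the 8 screened genes and 0.016 over all screened genes. In bulk tissue, a change in the number of cells of a type and a change in RNA per cell cannot be told apart.

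**Figure D1:**
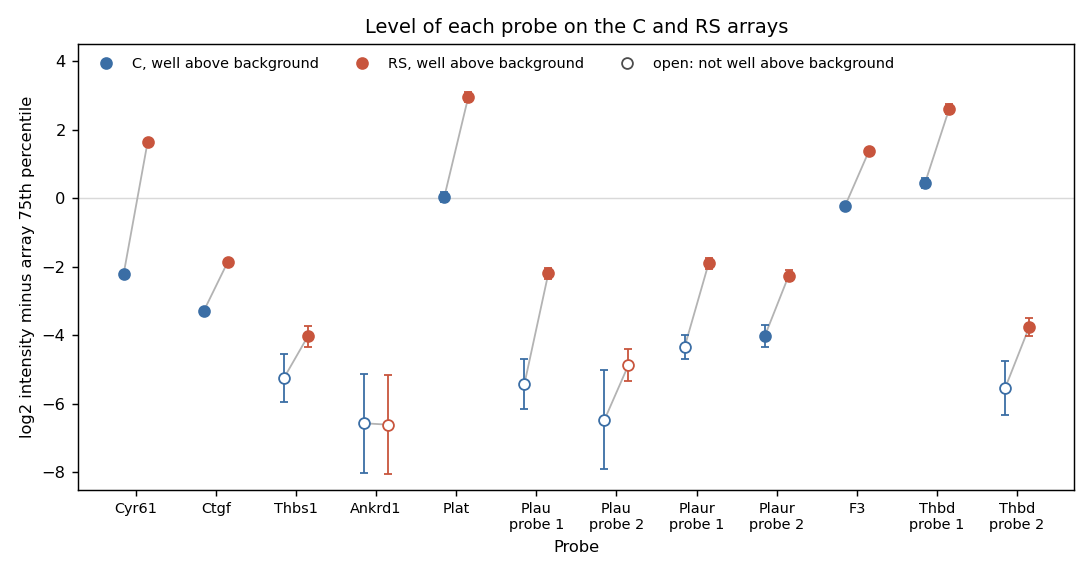
Level of each of the 12 probes on the C array (blue) and the RS array (red), on the log2 scale relative to the array's 75th percentile; error bars are the spot error of the scanner software, and open symbols were not well above background. The RS symbol lies above the C symbol for every probe other than that of Ankrd1, which was not well above background on C or RS.

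Of the matricellular genes, Cyr61 showed the largest difference of the set and Ctgf a smaller one in the same direction. The Cyr61 probe (chromosome 2, 243824364 to 243824423, reverse strand, in the rn4 build of the file header) was printed in 10 spots. Its spots ranged from 38.6 to 43.7 on the C array, with a median of 40.6, and from 523 to 619 on the RS array, with a median of 552. No spot of one array overlapped the spots of the other. How often this holds over all probes printed in 10 spots was not counted, here or for Ctgf and F3 below. Averaged, they were 40.9 and 554, which is 14.5-fold higher in RS (log2 difference 3.86, spot error 0.069), and 14 of all screened genes, Cyr61 included, were higher by at least as much. With the normexp background correction, which adds an offset to every signal, the difference was 6.39-fold.

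The Ctgf probe (chromosome 1, 21327574 to 21327633, reverse strand) was also printed in 10 spots. Its spots ranged from 11.9 to 25.8 on the C array, where 9 of the 10 were well above background, and from 45.3 to 52.4 on the RS array, where all 10 were. The spots of the arrays did not overlap, although those of the C array were more scattered, with an SD of log2 intensity of 0.33 compared with 0.058 on the RS array. Ctgf was 2.70-fold higher (log2 difference 1.43, spot error 0.087). The spot error comes from the scanner software and does not take in the scatter of the C spots. This call was lost with normexp, which gave 1.41-fold.

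Thbs1 and Ankrd1 were at the limit of detection. The Thbs1 probe, which the files do not place on the genome, read 4.98 in C, not well above background, and 10.8 in RS, well above background. After normalization the signals stood in a ratio of 2.33, with a spot error of 0.76 on the log2 scale. Against 9.45, the dimmest signal that was well above background in C, Thbs1 was at least 1.23-fold higher, which was under 2-fold. Here and below, "at least" refers to such a bound, which leaves out the spot error. The Ankrd1 probe (chromosome 1, 240316831 to 240316890, reverse strand) read 1.996 in C and 1.81 in RS. Both values are surrogates that the scanner software sets for spots without signal, so that no fold change is given for Ankrd1.

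**Figure D2:**
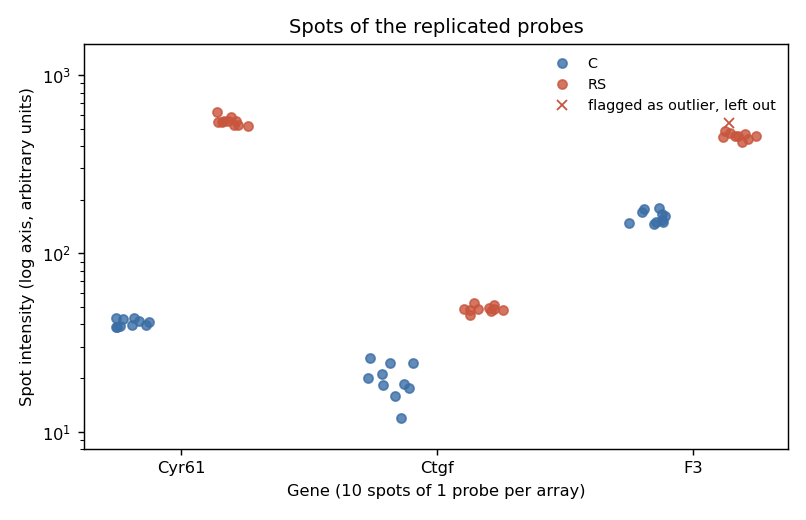
Intensity of each spot (log axis) of the probes for Cyr61, Ctgf and F3, each printed in 10 spots per array, on the C array (blue) and the RS array (red). The spots of the 2 arrays do not overlap for any of the 3 genes, which covers the measurement within an array only. The share of all probes printed in 10 spots that show the same was not counted. The cross marks the F3 spot of the RS array that was left out as an outlier.

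All 3 genes of plasminogen activation were higher on the RS array. Plat, measured by 1 probe in 1 spot (chromosome 16, 73711476 to 73711535, reverse strand), gave 192 in C and 1358 in RS, both well above background. This was 7.57-fold higher (log2 difference 2.92, spot error 0.20), and it was 5.72-fold with normexp. After Cyr61, Plat had the largest difference of the 5 genes measured above background on both arrays.

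Urokinase and its receptor were at or near background on the C array. Plau probe 1 (chromosome 15, 3680711 to 3680770, reverse strand) read 4.38 in C, not well above background, and 38.6 in RS, well above background. Plau was therefore at least 4.38-fold higher, and the plain ratio of the signals was 9.45. Plau probe 2, on the same chromosome from 3682076 to 3682135, read 2.14 on the C array, a surrogate value, and 6.07 on the RS array, and was not well above background on either. With the mean over both probes the bound for Plau was 1.73-fold, and with normexp it was 1.58-fold, so that the call rests on probe 1.

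Both probes for Plaur were higher on the RS array. Probe 1, which the files do not place on the genome, went from 9.32 on the C array, not well above background, to 47.2 on the RS array, at least 5.35-fold higher. Probe 2 (chromosome 1, 79712786 to 79712845, forward strand) was well above background on both arrays and went from 11.6 to 37.0, which was 3.41-fold higher (log2 difference 1.77, spot error 0.35). With normexp the gene was 1.61-fold higher, under the threshold.

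F3, which starts clotting, and Thbd, which restrains it, were both higher. The F3 probe (chromosome 2, 218382225 to 218382283, forward strand) had 10 spots from 147 to 179 in C and 9 used spots from 421 to 489 in RS, where 1 further spot was an outlier. The spots did not overlap, and by their averages, 160 and 457, F3 was 3.05-fold higher (log2 difference 1.61, spot error 0.067). With normexp F3 was 2.43-fold higher.

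Thbd probe 1 (chromosome 3, 137158969 to 137159028, reverse strand) gave 257 in C and 1065 in RS, 4.44-fold higher (log2 difference 2.15, spot error 0.20). Thbd probe 2 (137160721 to 137160780 on the same strand) read 4.06 in C, not well above background, and 13.04 in RS, which was. Its difference was at least 1.48-fold, in the direction of probe 1 but under 2-fold. With normexp Thbd was 3.71-fold higher.

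**Figure D3:**
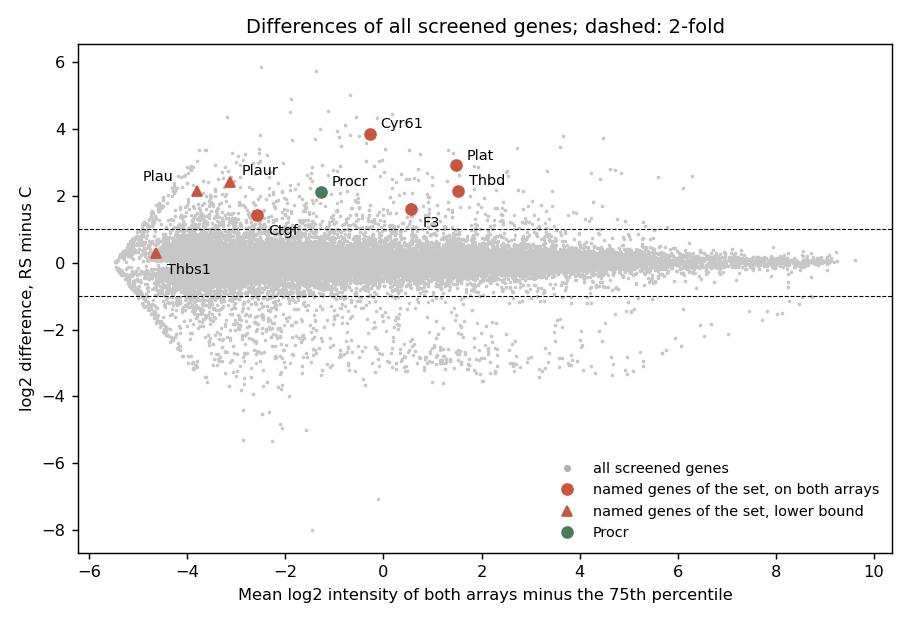
Log2 difference (RS minus C) of all 21096 screened genes against their mean log2 level relative to the 75th percentile, with dashed lines at 2-fold; triangles are lower bounds. Of the 8 screened genes of the set (red), Cyr61 lies highest and only Thbs1 lies under 2-fold, and Procr (green) lies above it as well.

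Partner genes were taken from 6 lists written by role. Of the genes reported from them, 93 are on the array and 72 were screened. Of these, 7 were higher by 2-fold or more and 1 was lower, with a median log2 difference of 0.19. For this and the list counts below, the shares over all screened genes were 3.46% higher and 4.28% lower, with a median of 0.016. In the plasminogen system, 0 of the 9 screened genes reported passed 2-fold in either direction, and their median was 0.084. Plg, which encodes plasminogen, had a log2 difference of -0.23, with intensities of 114 in C and 90.5 in RS. Serpinf2, which encodes the plasmin inhibitor alpha-2-antiplasmin, went from 15.5 to 27.8, a log2 difference of 0.95. S100a10, a partner of annexin A2 that binds plasminogen at the cell surface, had a log2 difference of 0.85, and Anxa2 itself one of 0.084. Serpine2, which encodes a protease inhibitor of thrombin and urokinase, had a log2 difference of 0.51.

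Of the anticoagulants and thrombin receptors, 2 of 9 screened genes were higher by 2-fold or more and 0 were lower. Procr, the endothelial protein C receptor that works beside thrombomodulin, went from 37.4 to 153, 4.37-fold higher (log2 difference 2.13, spot error 0.22), or 2.35-fold with normexp. Serpina5, a protein C inhibitor, was 2.26-fold higher. Procr was the only partner gene reported that stayed past 2-fold with normexp, so that the calls of Serpina5, F13a1, Tgfb2, Actg2, Vcl and Comp were lost with it. Tfpi, which inhibits the complex of tissue factor and factor VII, was close to equal on both arrays, at 127 and 129, a log2 difference of 0.12. F2r, a thrombin receptor, had no bound above 1-fold, and F2, which encodes prothrombin, was at background on both arrays.

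Of the 17 coagulation factors, 8 were screened. Only F13a1, the A subunit of the fibrin-crosslinking factor XIII, passed 2-fold among them, at 2.08-fold higher, and the list median was 0.14. The fibrinogen genes Fga, Fgb and Fgg, which are liver genes, did not stand above background on C or RS.

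Few of the other targets and regulators of YAP and TAZ passed 2-fold. Of the 24 screened genes of this list, 1 was higher by 2-fold or more and 1 was lower, with a median of 0.11. Tgfb2, a TGF-beta ligand, was 3.25-fold higher by its representing probe, but of its 3 other probes 1 gave a log2 difference of 0.30, 1 a bound of 0.65, and 1 was not well above background. Ajuba, a LIM protein that restrains the Hippo kinases, was 2.04-fold lower (log2 difference -1.03, spot error 0.30), a call that was lost with quantile normalization and with normexp. The coactivator Yap1 had a log2 difference of 0.063, Amotl2, another YAP target, one of -0.00084, and Wwtr1, which encodes TAZ, was at least 1.97-fold higher. Tead4, a TEAD factor, was 1.998-fold higher (log2 difference 0.998), so that it and Wwtr1 lay just under the threshold.

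Of the 14 screened genes of serum response factor and its contractile targets, 2 were higher by 2-fold or more and 0 were lower, with a median of 0.61. They were Actg2, a smooth muscle actin, at 2.43-fold, and Vcl, the focal adhesion protein vinculin, at 2.35-fold. Srf itself had a log2 difference of 0.19. In the CCN and thrombospondin families, Comp, a cartilage thrombospondin, was at least 2.55-fold higher, and the other 7 screened genes did not pass 2-fold, with a list median of 0.40. Among them, Nov and Wisp2, further CCN genes, had log2 differences of 0.51 and 0.88.

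**Figure D4:**
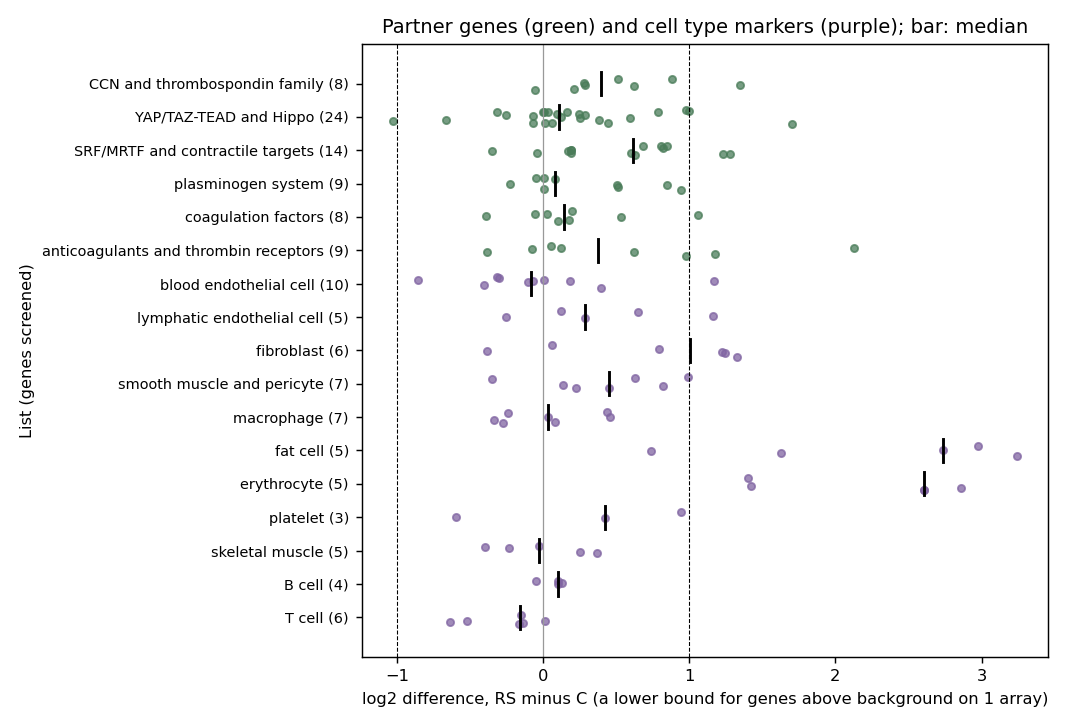
Log2 difference (RS minus C) of each screened gene in the 6 lists of partner genes (green) and the 11 lists of cell type markers (purple), with the number screened in parentheses, the list median as a bar and dashed lines at 2-fold. The 9 plasminogen genes shown lie between -0.23 and 0.95, and the fat cell and erythrocyte markers have medians of 2.74 and 2.60.

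Markers of other tissue components also differed between the arrays. The T and B cell markers that define a lymph node were well above background on both arrays for 6 of 6 and 4 of 4 genes, and their medians were -0.16 and 0.099. The fat cell markers were higher by 2-fold or more for 4 of 5 screened genes, with a range from 0.74 to 3.24, and their summed intensity went from 3909 to 9659, while Plin1, the lipid droplet coat protein, was at background on both arrays. Erythrocyte markers were higher for 5 of 5 screened genes, from 1.40 to 2.86, and their sum went from 6241 to 35352, while Slc4a1, the band 3 anion exchanger, was at background. Fibroblast markers were higher for 3 of 6 genes, from -0.39 to 1.33, with sums of 13071 and 27040. Endothelial cells are a known source of Thbd, Procr and Plat, and 1 of 10 blood endothelial markers was higher by 2-fold or more, with a median of -0.086 and sums of 5321 and 5038. Of the 3 screened platelet markers, 0 passed 2-fold, with a median of 0.43 and a range from -0.60 to 0.94. Of the macrophage markers, 0 of 7 passed 2-fold, with a median of 0.032. The remaining lists, for lymphatic endothelium, smooth muscle and skeletal muscle, held 1 of 5, 0 of 7 and 0 of 5 genes that were higher by 2-fold or more, with medians of 0.28, 0.45 and -0.031. None of the 11 marker lists held a gene that was lower by 2-fold or more. The part of fat, blood, fibroblasts, endothelium, platelets or macrophages in the differences of the plasminogen, clotting and matricellular genes was not tested.

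The named genes nearest to Cyr61 and Ctgf were sought among 11885 genes above background on both arrays, by distance in normalized log2 level. The distance rests on 2 arrays, so it says only that a gene had similar values on both. Among the genes nearest to Cyr61 were S100a9 (distance 0.31, log2 difference 3.78) and Srxn1 (0.53, log2 difference 4.36). Nearest to Ctgf were Mtmr10, Gprc5b and Tbx18, with log2 differences of 1.31, 1.27 and 1.36. None is given for Thbs1, whose level in C was not above background.

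**Figure D5:**
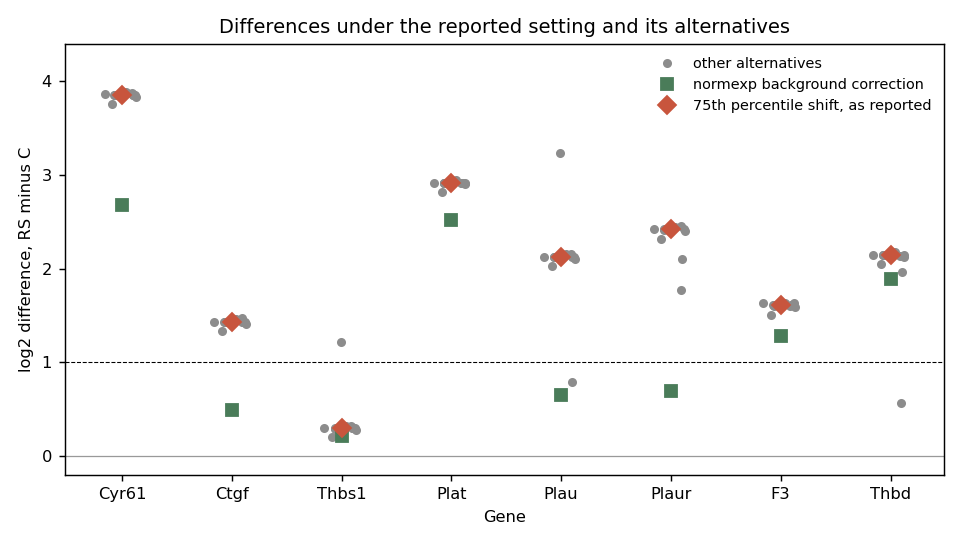
Log2 difference (RS minus C) of the 8 screened genes with the 75th percentile shift (red diamonds), with normexp (green squares) and under the other alternatives (grey), with a dashed line at 2-fold. Cyr61, Plat, F3 and Thbd stay above the line with normexp, whereas Ctgf, Plau and Plaur fall under it.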

How the data were processed

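Cervical lymph node RNA of the C and RS groups was hybridized to 1 array each (SurePrint G3 Rat GE 8X60K). The authors labelled the RNA with Cy3, scanned the slide and extracted it with Agilent Feature Extraction 11.5.1.1. They deposited spot intensity values, with background subtracted within an array and no normalization between arrays, and a table of log2 values per probe. Set against the intensities, 100% of the table's values for 45598 probes lay within 0.1 of log2 intensity minus the array's 75th percentile, the shift named in the methods.

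From the intensities, control spots and outlier spots (489 on C, 660 on RS) were left out, the remaining log2 values were averaged per probe, and each array's 75th percentile was subtracted. A probe was well above background when more than 50% of its spots were marked so. The probe with the highest mean signal stood for its gene, and the threshold was 2-fold, as in the methods. For a gene above background on only 1 array, the fold is a lower bound, taken against its own signal on the other array or against the dimmest signal called above background there (9.45 on C, 8.52 on RS), whichever was higher. Errors combine the scanner software's spot errors, not the scatter among the spots of a probe, and cover the spot measurement only. The bounds leave these errors out. The dimmest marked signal is not a strict limit of detection, since 1 Ctgf spot of 11.9 on C was not marked as well above background. The number of arrays limits the precision. No p-value was computed.

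The genes, the 6 partner and 11 marker lists and the rules were chosen with earlier results of these data known. All probes of the set were shown. Of each partner list, up to 3 genes with the largest change past 2-fold each way were named. Tfpi, Procr, Yap1, Wwtr1 and Srf were always named. Plg, Serpinf2, Serpine2, S100a10, Anxa2, F2, F2r, the fibrinogen genes, Amotl2, Tead4, Nov and Wisp2 were named after their values were seen. For Cyr61, Ctgf and Thbs1 the 3 nearest genes were sought; those of Thbs1 are not given, since candidates had to be above background on both arrays and Thbs1 was not. A gene that these rules name is not reported here, and the counts and medians of the lists leave it out. RefSeq accessions matched 11 of the 12 probes and all 9 genes in the GRCr8 table. Coordinates of probes are those of the files. The 13 alternatives cover scaling, background correction, spots, probes, bounds and filters. The code was checked on a simulated array made from the C array with known changes. That array held no variation between rats or dissections, so the check is no test of the calls. Calculations used R 4.3.3 with limma 3.58.1 (normexp, offset 50), Python 3.11.15, numpy 2.4.6, pandas 2.3.3 and matplotlib 3.10.9.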

Additional observations from a re-analysis of the deposited data

How the results depend on the processing

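Under the 13 alternatives, all 101 values obtained for the 8 screened genes were above 0. Many of these values repeat one another. For a gene with 1 probe that was above background on both arrays, such as Cyr61, the settings for probes, bounds and filters return the same number. The genes were also chosen on this contrast, so the counts are a description. Of 89 values for the 7 genes past 2-fold, 84 stayed past it. The exceptions were Ctgf, Plau and Plaur with normexp (log2 differences 0.50, 0.66 and 0.69), Plau with the mean over its probes (0.79), and Thbd with its dimmer probe (0.56). Thbs1 passed 2-fold only where the ratio of the signals replaced the bound (1.22). With normexp, 4 of the genes were higher by 2-fold or more and their median log2 difference was 0.99 (0 were lower). Of the partner genes reported, 1 was higher with normexp and 11 without a filter, compared with 7. With median scaling and with quantile normalization, 10 were higher. Normexp left 234 of all genes higher and 378 lower. Partner genes lower by 2-fold or more numbered 0 with quantile normalization and with normexp, and 2 with the dimmest probe or with the ratio in place of the bound. Without a filter, 36174 genes entered, 1741 higher and 1905 lower, and 601 were lower among genes above background on both arrays, since the filter sets how many qualify. Normexp adds an offset, which shrinks differences of dim genes by construction. Higher genes made up 44.7% of all those past 2-fold and between 38.0% and 47.8% under the alternatives; the median over all genes shifted by under 0.1 with every scaling. No paired analysis was possible because there is only 1 array for C and 1 for RS, so no replicate was left out either. Signal over background limits Thbs1, Ankrd1, Plau and Plaur.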
